A study of Mus musculus with 9 samples.

Results

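Solute carriers, sodium pumps, water channels and epithelial sodium channels were taken as the array probes whose platform gene symbol starts with a solute carrier name (Slc, a family number, then a and a member number) or with Aqp, Atp1a, Atp1b or Scnn1 and their numbers or letters. Of 10012 probes on the array, 178 met this rule and stood for 176 of the 8841 genes named on it. They comprised 15 probes of lung fluid transport genes (Aqp, Atp1b and Scnn1), 21 of mitochondrial carriers (Slc25), 35 of amino acid and peptide carriers, 16 of sugar carriers, 25 of ion carriers, 15 of metal carriers and 48 of other carriers. A further 3 probes carry a matching symbol without encoding a carrier: the scaffold proteins Slc9a3r1 and Slc9a3r2, and Slc4a1ap, an adaptor protein of the anion exchanger. No probe was named Atp1a, so the catalytic subunits of the sodium pump were not analysed here.

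The study profiled total RNA of mouse lung on 9 expression arrays in a comparison of ventilator injury with endotoxin injury. Overventilated lungs (3 arrays) had been ventilated mechanically at a pressure of 25 cmH2O over 3 h. LPS lungs (3 arrays) came after an injection of lipopolysaccharide from Escherichia coli, serotype O127:BO, at 3 mg/kg, and the other 3 arrays were of control lungs. The labels used here give no strain, age, sex, time after LPS or handling of the control mice. Separate animals for the arrays of a group are not stated either, so each p-value reflects the spread among these arrays, part or all of which may be technical. Wherever lungs are counted below, and in every n, the unit is the array.

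In the alveolus, sodium enters epithelial cells through the epithelial sodium channel and is pumped out at the other side by the sodium pump, and water follows through aquaporins and between cells. The pump pairs a catalytic alpha subunit with a beta subunit that brings the pair to the cell surface. Slc25 carriers exchange nucleotides, phosphate and metabolites across the inner mitochondrial membrane, and most other Slc families take up or release nutrients, ions and mediators at the plasma membrane or in vesicles.

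Upstream sequence is shown for 6 of the genes on which the comparison of overventilated with control lungs turns, so that their start regions can be set beside each other. Each sequence holds the 200 bases before the annotated start of the gene, 5′ to 3′ on the gene's own strand, from RefSeq on build GRCm38.p6. Capitals mark matches on either strand to any of 5 motifs: the GC box GGGCGG, the CCAAT box CCAAT, the E-box CACGTG, the TATA box TATAAA and the AP-1 site TGANTCA. Slc25a5 lies at chrX:36795397-36795596 on the plus strand and Slc25a33 at chr4:149774268-149774467 on the minus strand. Atp1b1 lies at chr1:164458356-164458555 and Atp1b3 at chr9:96364432-96364631, both on the minus strand, the window of Atp1b3 being that of the first of its listed starts. Slc15a2 lies at chr16:36784963-36785162 on the minus strand and Slc6a4 at chr11:76998397-76998596 on the plus strand.
Slc25a5: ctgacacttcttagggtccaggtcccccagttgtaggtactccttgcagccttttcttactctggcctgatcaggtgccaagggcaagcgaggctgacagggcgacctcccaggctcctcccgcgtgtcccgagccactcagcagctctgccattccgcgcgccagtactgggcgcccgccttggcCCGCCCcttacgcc
Slc25a33: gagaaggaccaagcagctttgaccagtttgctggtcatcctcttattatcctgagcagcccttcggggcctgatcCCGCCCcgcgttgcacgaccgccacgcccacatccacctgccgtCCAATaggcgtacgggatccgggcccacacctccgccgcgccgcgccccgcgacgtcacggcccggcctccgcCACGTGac
Atp1b1: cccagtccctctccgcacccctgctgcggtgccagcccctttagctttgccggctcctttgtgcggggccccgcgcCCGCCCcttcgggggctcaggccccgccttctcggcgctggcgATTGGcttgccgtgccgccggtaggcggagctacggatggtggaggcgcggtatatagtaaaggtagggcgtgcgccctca
Atp1b3: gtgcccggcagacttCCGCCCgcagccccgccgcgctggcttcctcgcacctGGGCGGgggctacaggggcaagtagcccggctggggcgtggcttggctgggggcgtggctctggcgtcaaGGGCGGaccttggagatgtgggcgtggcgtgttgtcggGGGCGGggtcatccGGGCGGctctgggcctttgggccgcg
Slc15a2: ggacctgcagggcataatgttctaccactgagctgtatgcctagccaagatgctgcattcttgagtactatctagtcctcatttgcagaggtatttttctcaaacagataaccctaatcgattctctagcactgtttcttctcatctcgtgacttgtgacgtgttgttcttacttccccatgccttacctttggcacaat
Slc6a4: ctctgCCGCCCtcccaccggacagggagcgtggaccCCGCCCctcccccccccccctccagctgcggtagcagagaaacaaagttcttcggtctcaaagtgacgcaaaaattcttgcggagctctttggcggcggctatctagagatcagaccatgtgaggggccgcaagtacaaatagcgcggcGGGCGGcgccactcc

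The 5 copies of the GC box upstream of Atp1b3 were the most among these 6 windows, Slc6a4 held 3, and Slc25a5, Slc25a33 and Atp1b1 held 1 each. Slc25a33 also held 1 CCAAT box and 1 E-box, and Atp1b1 held 1 CCAAT box. None of the 5 motifs was found in the window of Slc15a2, which says only that these letters are not in these bases. RefSeq windows were matched for 68 of the 85 tested genes, taking only the first listed start of each gene. Of these, 58.8% held a GC box, against 31.0% of the 32851 windows in the table. The table counts every listed start, so a gene can enter it repeatedly. Here and below, the shares therefore compare unlike units. A CCAAT box was held by 22.1% against 29.3%, an E-box by 8.82% against 5.26%, a TATA box by 7.35% against 9.96% and an AP-1 site by 7.35% against 5.48%. These shares describe the sequence next to the genes and carry no information about which factors bind there.

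Each deposited value is a ratio to the mean of the controls for the same probe. Levels below are log2 ratios with the mean of the 3 control arrays at 0, and no probe's level can be set against another probe's. The values also carry a lower limit on each array, here called the floor. For probes at the floor on all 9 arrays it was a ratio of 2.22 on overventilation array 3. It lay between 0.709 and 1.32 on the other 8 arrays. For any other probe the ratio at the floor depends on that probe's own control mean. Of the 178 probes, 35 lay at the floor on all 9 arrays. Another 58 lay at the floor on some arrays and did not exceed the highest of the 9 floors on at least 3 arrays, the filter used. The other 85, each for a different gene, were tested among 5710 probes of the whole array. For 82 of them the distance from the floor is unknown, and they were tested without that filter. Of the alveolar type II markers Sftpa1, Sftpc and Sftpd were among 8 probes that were all tested. Of 9 endothelial marker probes 5 were tested (Emcn, Kdr, Ramp2, Tek and Tie1), and Cdh5 lay at the floor on every array. Of 6 macrophage marker probes 4 were tested (Chil3, Mrc1, Msr1 and Siglecf), and Adgre1 and Slc11a1 lay at the floor on every array.

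Overventilation against control sets lungs after high-pressure ventilation beside control lungs, whose handling is not stated. No probe of the array, and none of the 85 carrier, pump and channel probes, passed limma's test at an adjusted p under 0.05 (0.0% of 5710 probes), though 290 probes did without overventilation array 2, Slc2a1, Slc15a2, Slc25a5 and Atp1b1 among them. At an unadjusted p under 0.05, 9 of the 85 differed, 5 higher and 4 lower in overventilated lungs, which is 10.6% of them against 14.9% of all tested probes (6.2% higher and 8.69% lower). The higher ones were Slc25a5, Slc25a33, Atp1b1, Atp1b3 and Slc35a4, and the lower ones Slc15a2, Slc6a4, Slc2a1 and Slc17a5. The values of the 3 overventilated lungs lay wholly above those of the controls for 7 of the 85 and wholly below for 4, against 9.12% and 10.5% of all tested probes (19.6% in either direction). The median difference of the 85 was 0.07 on the log2 scale, against -0.01 over all tested probes. The difference was under 2-fold for 76 of the 85, and the typical standard error was 0.41. The share of the members that differed was thus no larger than that of the array as a whole.

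**Figure D1:**
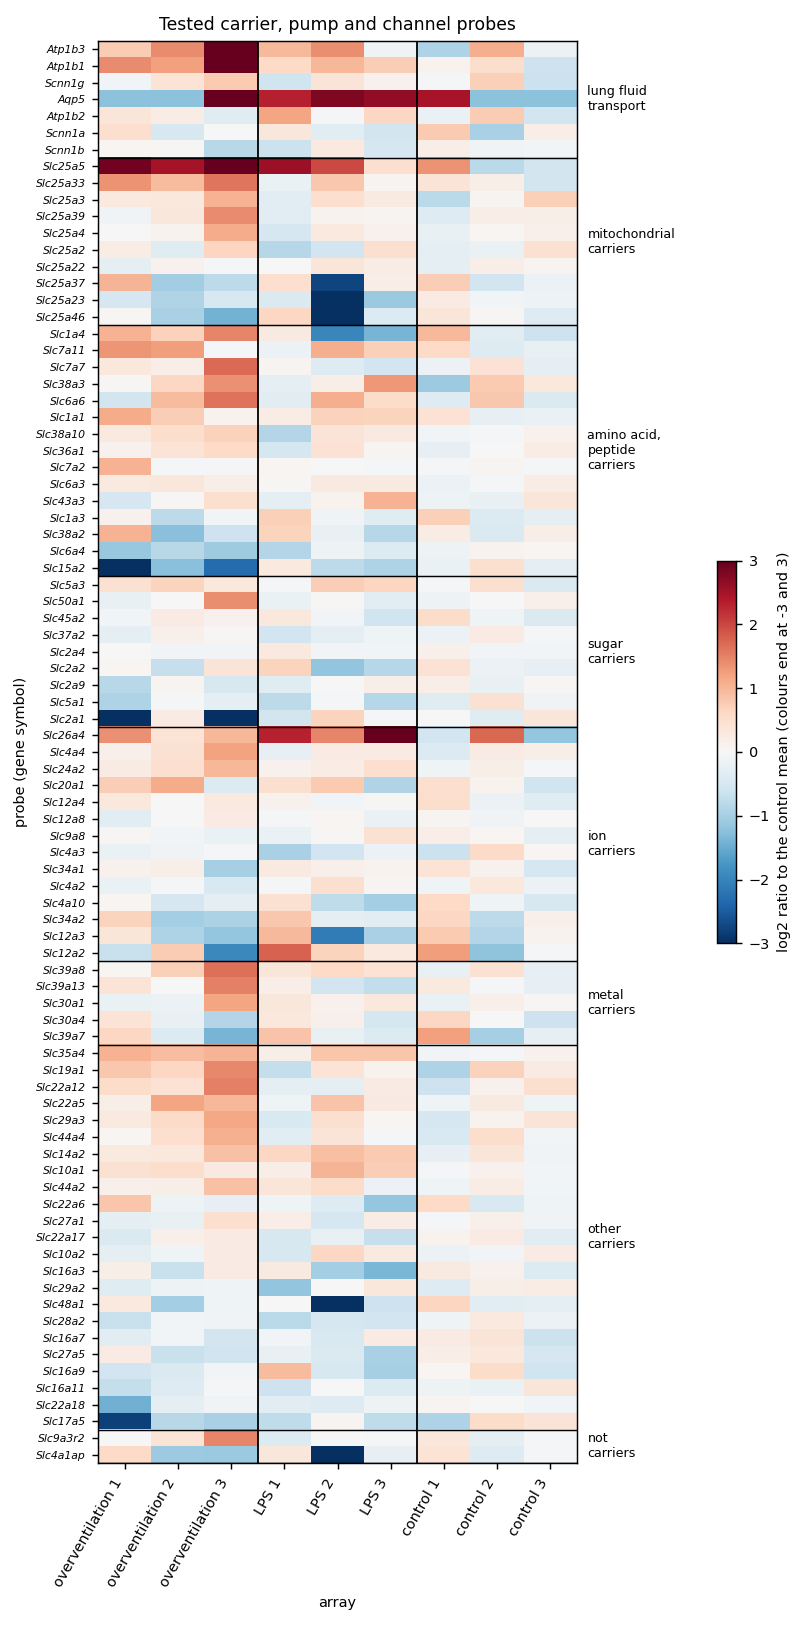
Colour map of log2 ratios to the control mean for all 85 tested members, with 1 row per gene, grouped by family and ordered by the difference between overventilated and control lungs, and 1 column per array (overventilation, LPS, control); the colours end at -3 and 3. Slc25a5 and Atp1b1 were high on all 3 overventilation arrays, Slc15a2 was low on all 3, and Slc25a23, Slc25a46 and Slc48a1 were lowest on LPS array 2.

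Lung fluid transport genes were tested for 7 of 15 probes. A higher mean in overventilated than in control lungs was seen for 6 of the 7 and for 2820 of all 5710 tested probes. Atp1b1, the beta subunit of the sodium pump most widely used in epithelia, was at 1.43, 1.24 and 3.01 in overventilated lungs, 0.59, 1.00 and 0.74 in LPS lungs and 0.10, 0.52 and -0.62 in control lungs. Every overventilated lung lay above every LPS lung, and every LPS lung above every control lung. The difference between overventilated and control lungs was 1.89 ± 0.50 (SE, n = 3 each), or 3.71-fold, with an adjusted p of 0.193. Without overventilation array 3, where it was highest, the difference was 1.33.

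Atp1b3, another beta subunit, was at 0.76, 1.42 and 3.71 in overventilated lungs, 0.97, 1.40 and -0.11 in LPS lungs and -0.92, 1.08 and -0.17 in control lungs. Its groups overlapped, since control array 2 lay above overventilation array 1. The difference from control was 1.97 ± 0.78 (SE, n = 3 each; adjusted p = 0.278), and 1.09 without overventilation array 3. Atp1b2, a beta subunit best known from glia and muscle, averaged 0.07 ± 0.38 in overventilated lungs and 0.59 ± 0.61 in LPS lungs (SD, n = 3 each), both overlapping the controls.

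The 3 subunits of the epithelial sodium channel were tested and none differed from control in either injury group. The difference between overventilated and control lungs was 0.00 ± 0.48 for Scnn1a, -0.25 ± 0.37 for Scnn1b and 0.36 ± 0.44 for Scnn1g (SE, n = 3 each), and all 3 groups overlapped for each gene. A p that misses the threshold does not show that the levels were alike.

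Aqp5, the water channel of alveolar type I cells and glands, was read at the floor on overventilation arrays 1 and 2 and on control arrays 2 and 3. It was at 3.15 on overventilation array 3 and at 2.48 on control array 1. In LPS lungs it was at 2.33, 2.81 and 2.67, above the floor on all 3. Each of the other groups thus held both floor values and a value like those of the LPS lungs, and the LPS difference of 2.60 ± 1.26 (SE, n = 3 each) had an adjusted p of 1. Its standard error was the largest among the 85 tested members.

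Of the remaining aquaporins, Aqp2, Aqp4, Aqp7, Aqp9 and Aqp11 lay at the floor on all 9 arrays and Aqp1, Aqp3 and Aqp8 on some. Aqp1, the water channel of lung capillaries and red cells, stood 0.76 and 1.5 (log2) above the array's own floor on overventilation arrays 2 and 3 and was at the floor on array 1. In LPS lungs it stood 0.32 and 0.13 above it on arrays 1 and 2, and in control lungs it was at the floor on all 3. Aqp3, a water and glycerol channel of airway epithelium, was above the floor on 2 overventilation arrays, 1 LPS array and 1 control array, by at most 0.96. Aqp8 was above it on LPS array 2 alone.

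Known regulators of this transport, from a list of 30 genes of which 14 had a tested probe, included 3 that were higher in overventilated lungs at an unadjusted p under 0.05 and none lower, where 6.2% of all tested probes were higher and 8.69% lower. Sgk1, a kinase that raises surface sodium channel and pump, was at 1.59, 2.47 and 3.45 in overventilated lungs, 0.07, 0.87 and 0.92 in LPS lungs and -0.31, 1.09 and -0.79 in control lungs. All overventilated lungs lay above all others, and the difference from control was 2.50 ± 0.59 (SE, n = 3 each; adjusted p = 0.193). Cftr, the chloride channel of airway and alveolar epithelium, was higher by 1.77 ± 0.55 (adjusted p = 0.214). Nedd4l, the ubiquitin ligase that removes the sodium channel from the surface, was higher by 1.64 ± 0.64 in overventilated lungs (adjusted p = 0.273) and by 1.99 in LPS lungs against control (adjusted p = 1). In LPS against control it was the only one of the 14 higher at an unadjusted p under 0.05, and Fxyd7, a small modulator of the sodium pump, was the only one lower, at a difference of -1.02 (adjusted p = 1). Of all tested probes 0.998% were higher and 1.07% lower in LPS against control at that threshold. The list's median difference between overventilated and control lungs was 0.11.

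The median of the tested alveolar type I markers was also high on overventilation array 3. Of 9 such markers 4 were tested, Aqp5 among them, and their median was 0.51, 0.45 and 3.06 on overventilation arrays 1 to 3, 0.25, 1.00 and 0.58 on the LPS arrays and -0.02, 0.11 and -0.45 on the control arrays. On overventilation array 3 Ager, a receptor typical of type I cells, was at 4.48 and Cav1 at 2.96. Pdpn was at 0.63 there, against 0.71 on overventilation array 1. Single markers of other cell types were high there too, such as Sftpd of type II cells at 4.12 and Acta2 of smooth muscle at 2.99. The medians of the type II and smooth muscle markers on that array were 0.02 and -0.04. Atp1b1, Atp1b3 and Slc25a5 were 3 of 110 probes that stood more than 1.5 (log2) above every other array on overventilation array 3, against at most 6 such probes on any other array. The part of these in the pump results was not tested. In whole lung, a change in the number of cells of a type and a change in RNA per cell cannot be told apart.

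**Figure D2:**
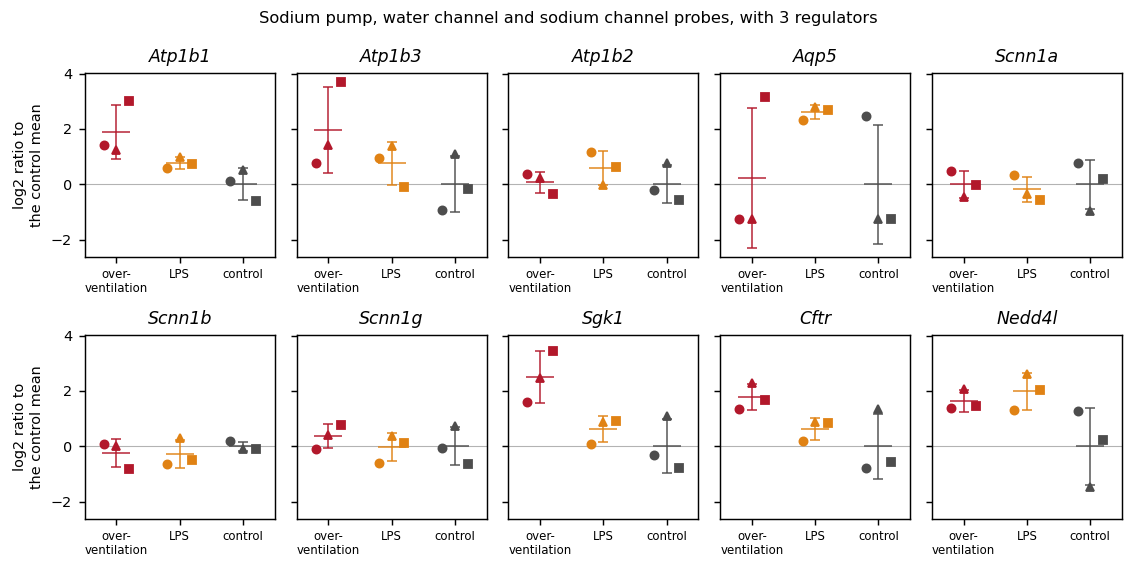
Log2 ratio to the control mean on each array (circle, triangle and square for arrays 1, 2 and 3 of a group) for the tested lung fluid genes and the regulators Sgk1, Cftr and Nedd4l, with the group mean and its SD as bars, overventilation left, LPS in the middle and control right. Atp1b1 differed between all 3 groups without overlap, Atp1b3 overlapped, and Aqp5 was high in all 3 LPS lungs but in only 1 lung of each other group.

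Mitochondrial carriers were tested for 10 of 21 probes, and 2 of the 10 were higher in overventilated lungs at an unadjusted p under 0.05 with none lower, where 6.2% of all tested probes were higher and 14.9% differed in either direction. Slc25a5, the ADP/ATP exchanger of most dividing and epithelial cells, had the largest difference from control of the 85 members. It was at 2.89, 2.50 and 5.04 in overventilated lungs, 2.57, 1.99 and 0.51 in LPS lungs and 1.35, -0.81 and -0.54 in control lungs. Overventilated and control lungs did not overlap, while LPS lungs reached into both. The difference from control was 3.48 ± 0.81 (SE, n = 3 each), or 11.1-fold, with an adjusted p of 0.193, and 2.70 without overventilation array 3.

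Slc25a33, a carrier of pyrimidine nucleotides, was at 1.35, 0.95 and 1.61 in overventilated lungs, -0.21, 0.81 and 0.09 in LPS lungs and 0.38, 0.18 and -0.56 in control lungs. The overventilated lungs lay above all 6 others. It was higher by 1.30 ± 0.39 against control (adjusted p = 0.213) and by 1.07 ± 0.39 against LPS (SE, n = 3 each; adjusted p = 0.494). Of the 5 members that were higher against control, it and Slc35a4 were the ones without a lone high value on overventilation array 3.

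The other ADP/ATP exchanger on the array, Slc25a4 of heart and muscle, was higher by 0.40 ± 0.38 in overventilated than in control lungs (SE, n = 3 each; adjusted p = 0.688), with overlap. Of 12 listed heart and skeletal muscle markers, Ckm, Myh6 and Myh7 lay at the floor on all 9 arrays and 5 were tested, Slc25a4 among them. Between overventilated and control lungs the other tested ones differed by -0.30 (Actc1), 0.34 (Myl7), -0.32 (Tnni3) and -2.06 (Tnnt2). The phosphate carrier Slc25a3 was higher by 0.56 ± 0.44 and Slc25a39, which brings glutathione into mitochondria, by 0.55 ± 0.42 in the same comparison, neither of them beyond the overlap of the groups. Slc25a22, a glutamate carrier, and Slc25a2, an ornithine carrier, differed by -0.06 and 0.17.

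In LPS lungs 3 mitochondrial carriers were far lower on array 2 than on the other arrays. Slc25a23, a calcium-regulated carrier of ATP-Mg and phosphate, was at -0.43, -4.14 and -1.12 in LPS lungs and -0.51, -0.90 and -0.48 in overventilated lungs, against 0.24, -0.09 and -0.15 in control lungs. It lay below control on all 6 arrays of the injury groups. Slc25a46, an outer membrane protein, was at -3.68 on LPS array 2 against 0.62 and -0.42 on the other LPS arrays, and Slc25a37, the mitochondrial iron importer mitoferrin, at -2.75 against 0.52 and 0.20. LPS array 2 held 291 probes that stood more than 1.5 (log2) below every other array, against at most 41 on any other. Of those 291, 5 were members: these 3 carriers, the haem transporter Slc48a1 and Slc4a1ap. Without that array the difference of Slc25a23 from control was -0.78, where it was -1.90 over all 3.

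The 10 tested mitochondrial carriers had a median difference of 0.29 between overventilated and control lungs and 0.46 between overventilated and LPS lungs, where 9 of 10 had the higher mean in overventilated lungs. The array's medians for these comparisons were -0.01 and 0.07. Of all 5710 tested probes 3143 had the higher mean in overventilated than in LPS lungs. Among the untested mitochondrial carriers, the citrate carrier Slc25a1 stood 0.68 and 1.70 (log2) above the array's own floor on overventilation arrays 2 and 3. It stood 0.43 above it on LPS array 2 and 0.64 on control array 2, and was at the floor on the other 5.

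**Figure D3:**
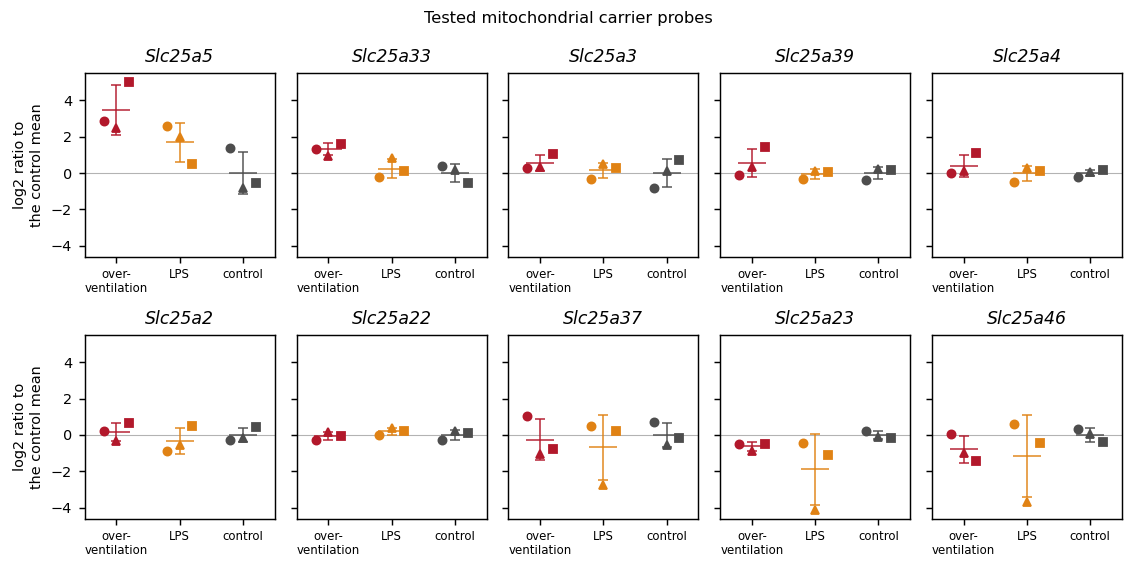
Log2 ratio to the control mean on each array (circle, triangle and square for arrays 1, 2 and 3 of a group) for mitochondrial carriers, with group mean and SD, overventilation left, LPS in the middle and control right. Slc25a5 and Slc25a33 lay above the controls on all overventilation arrays, and Slc25a23, Slc25a46 and Slc25a37 had their lowest value on LPS array 2.

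Amino acid and peptide carriers were tested for 15 of 35 probes. Slc15a2, the peptide transporter that takes up di- and tripeptides in airway and type II epithelium, had the lowest difference from control among the 85 members. It was at -2.98, -1.26 and -2.31 in overventilated lungs, 0.29, -0.78 and -0.93 in LPS lungs and -0.21, 0.47 and -0.26 in control lungs. All overventilated lungs lay below all 6 others, by 4.54-fold against control on average. The difference was -2.18 ± 0.50 against control (adjusted p = 0.193) and -1.71 ± 0.50 against LPS (SE, n = 3 each; adjusted p = 0.494).

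Slc6a4, the serotonin transporter, which lung capillary endothelium and platelets carry, was at -1.14, -0.82 and -1.07 in overventilated lungs, -0.89, -0.16 and -0.42 in LPS lungs and -0.16, 0.10 and 0.06 in control lungs. Both injury groups lay below the controls on every array, LPS array 2 only narrowly. The difference from control was -1.01 ± 0.30 in overventilated lungs (SE, n = 3 each; adjusted p = 0.213) and -0.49 ± 0.30 in LPS lungs (adjusted p = 1). The replicates of overventilated lungs varied little, with an SD of 0.17. Other platelet markers went in both directions: of 6 markers 3 were tested, Gp9 and Itga2b lay at the floor on all arrays, and the difference between overventilated and control lungs was -1.13 for Ppbp and 1.41 for Pf4. Ppbp was at -0.80, -0.91 and -1.69 in overventilated lungs, -0.52, -2.23 and -1.57 in LPS lungs and -0.46, -0.16 and 0.63 in control lungs. Pf4 was at 0.86, 0.86 and 2.50 in overventilated lungs, 0.17, 0.23 and -0.20 in LPS lungs and -0.57, 0.26 and 0.31 in control lungs. The part of platelets in the Slc6a4 result was not tested.

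Slc1a4, a neutral amino acid exchanger, separated overventilated from LPS lungs. It was at 1.05, 0.69 and 1.47 in overventilated lungs, 0.27, -1.96 and -1.39 in LPS lungs and 0.96, -0.35 and -0.61 in control lungs. The overventilated lungs lay above all LPS lungs but overlapped the controls, since control array 1 lay above overventilation array 2. The difference from LPS was 2.10 ± 0.61 (SE, n = 3 each), or 4.29-fold, with an adjusted p of 0.494. Slc7a7, a subunit of the carrier of basic and neutral amino acids, was higher by 1.03 ± 0.44 in overventilated than in LPS lungs (adjusted p = 0.511). It was at 1.70 on overventilation array 3, and the difference was 0.55 without that array.

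Among the carriers that cells induce when amino acids run short, few could be followed. Slc7a11, the cystine importer that feeds glutathione synthesis, was at 1.32, 1.25 and -0.07 in overventilated lungs, -0.17, 1.10 and 0.72 in LPS lungs and 0.60, -0.39 and -0.21 in control lungs, with overlap between all groups. Slc38a2, a glutamine and alanine carrier, differed by -0.27 ± 0.60 between overventilated and control lungs. The heavy chain Slc3a2, the partner of Slc7a5 and Slc7a11 at the surface, was not tested. It stood 1.93 and 2.59 (log2) above the array's own floor on overventilation arrays 2 and 3 and was at the floor on array 1. In LPS lungs it stood above the floor on all 3 arrays, by at most 0.47. In control lungs it stood at most 0.73 above the floor and was at the floor on array 1. Its light chain Slc7a5 was above the floor on overventilation array 3 alone. Slc7a2, an importer of arginine, was at 1.05 on overventilation array 1 and within 0.1 of the control mean on the other 8 arrays, near the floor.

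Genes of the amino acid response and arginine use were tested for 14 of 21 listed genes, and 4 were higher in overventilated lungs at an unadjusted p under 0.05, where 6.2% of all tested probes were: Asns, Atf3, Chac1 and Gclc. Asns, asparagine synthetase, was at 1.44, 0.76 and 1.27 in overventilated lungs, -0.02, 0.98 and 0.01 in LPS lungs and 0.44, -0.25 and -0.19 in control lungs. Overventilated lungs lay above all controls but LPS array 2 lay above overventilation array 2. The difference from control was 1.16 ± 0.38 (SE, n = 3 each; adjusted p = 0.221). Gclc, the catalytic subunit of the first enzyme of glutathione synthesis, was higher by 2.06 ± 0.52 (adjusted p = 0.193). Atf3 and Chac1 were highest on overventilation array 3, at 4.56 and 3.66. None of the 14 was lower at that threshold, and their median was 0.44. The mean was higher in overventilated lungs for 8 of the 14 and lower for 6, among them Gclm at -0.62 ± 0.66. Of all 5710 tested probes 2820 had the higher mean.

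Sugar carriers were tested for 9 of 16 probes. Slc2a1, the basal glucose transporter of most cells, was at -3.29, 0.24 and -3.32 in overventilated lungs, -0.56, 0.67 and -0.07 in LPS lungs and 0.00, -0.36 and 0.36 in control lungs. The low values came from overventilation arrays 1 and 3, while array 2 lay inside the range of the controls. The difference from control was -2.12 ± 0.84 (SE, n = 3 each; adjusted p = 0.276). It was -3.30 without array 2 (adjusted p = 0.00338), and over all alternatives the adjusted p lay between 0.00338 and 0.754. On the whole array 139 tested probes were low by more than 1.5 (log2) on both overventilation arrays 1 and 3 below the other 7 arrays, and Slc2a1 was the only member among them.

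The remaining sugar carriers differed little. Slc5a3, which imports myo-inositol, was higher by 0.48 ± 0.35 in overventilated and 0.44 ± 0.35 in LPS lungs against control (SE, n = 3 each), both with overlap. Slc2a4, the insulin-responsive transporter of fat and muscle, was within 0.29 of the control mean on all 9 arrays and near the floor. Slc2a3 lay at the floor on all 9 arrays, and the fructose transporter Slc2a5 was above it on control array 1 alone. Of 10 genes of glucose use with a tested probe, Hk1, Hk2, Pfkfb3 and Pgk1 were higher and Hif1a lower in overventilated lungs at an unadjusted p under 0.05, where 6.2% of all tested probes were higher and 8.69% lower. Hk2, a hexokinase, was higher by 1.65 ± 0.43 in overventilated lungs and by 1.33 ± 0.43 in LPS lungs against control (adjusted p = 0.193 and 1). Hif1a, a transcription factor of the hypoxia response, was at -3.31, 0.70 and -4.63 in overventilated lungs, low on the same arrays 1 and 3 as Slc2a1.

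Ion carriers were tested for 14 of 25 probes, and none differed between overventilated and control lungs at an unadjusted p under 0.05. Slc12a2, the sodium-potassium-chloride cotransporter, was at -0.66, 0.77 and -1.94 in overventilated lungs, 1.77, 0.67 and 0.29 in LPS lungs and 1.26, -1.21 and -0.05 in control lungs. The overventilated lungs overlapped both other groups. Slc34a2, the phosphate carrier of alveolar type II cells, differed by -0.44 ± 0.56 in overventilated lungs and 0.07 ± 0.56 in LPS lungs against control. The bicarbonate cotransporter Slc4a4 was higher by 0.60 ± 0.37 and the phosphate carrier Slc20a1 by 0.48 ± 0.55 in overventilated lungs against control (SE, n = 3 each). The anion exchanger of red cells, Slc4a1, lay at the floor on all 9 arrays.

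Metal carriers were tested for 5 of 15 probes. The zinc importer Slc39a8 was higher by 0.81 ± 0.42 in overventilated lungs and by 0.46 ± 0.42 in LPS lungs against control, with overlap. Slc39a13, a zinc carrier of the secretory pathway, was higher by 1.02 ± 0.44 in overventilated than in LPS lungs (adjusted p = 0.511), at 0.40, 0.02 and 1.52 in overventilated lungs against 0.20, -0.58 and -0.75 in LPS lungs. Without overventilation array 3 the difference was 0.59. The zinc exporter Slc30a1 was higher by 0.27 ± 0.40 in both injury groups (SE, n = 3 each). The iron exporter Slc40a1 was not tested; it stood 0.85 and 1.64 (log2) above the array's own floor on overventilation arrays 1 and 2, 1.07 on LPS array 1, and 0.69 and 1.29 on control arrays 2 and 3. Slc11a1, the divalent metal transporter of macrophage phagosomes, lay at the floor throughout. Of 8 genes of metal handling with a tested probe, Ftl1 and Trf were higher in overventilated lungs at an unadjusted p under 0.05, where 6.2% of all tested probes were.

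Among the other carriers 23 of 48 probes were tested. Slc35a4, a Golgi protein of the nucleotide sugar transporter family, was at 1.05, 0.92 and 1.01 in overventilated lungs, 0.17, 0.84 and 0.83 in LPS lungs and -0.09, -0.03 and 0.12 in control lungs. Every overventilated lung lay above every LPS lung and every LPS lung above every control lung, and the overventilated lungs had an SD of 0.07. The difference from control was 0.99 ± 0.30 in overventilated lungs (SE, n = 3 each; adjusted p = 0.213) and 0.61 ± 0.30 in LPS lungs (adjusted p = 1).

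Slc17a5, the lysosomal sialic acid exporter sialin, was at -2.81, -0.83 and -0.98 in overventilated lungs, -0.77, 0.09 and -0.77 in LPS lungs and -0.93, 0.55 and 0.38 in control lungs. It was lowest on overventilation array 1, and overventilation array 2 lay above the lowest control, so the groups overlapped. The difference was -1.54 ± 0.60 (SE, n = 3 each; adjusted p = 0.27), and -0.91 without array 1. Slc19a1, the reduced folate carrier, was higher by 0.96 ± 0.48 and Slc22a5, the carnitine importer, by 0.78 ± 0.38 in overventilated lungs against control, and neither passed an unadjusted p under 0.05. Slc22a12, which carries urate in kidney, was higher by 0.93 ± 0.41 in overventilated than in LPS lungs (adjusted p = 0.523), and by 0.59 without overventilation array 3.

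**Figure D4:**
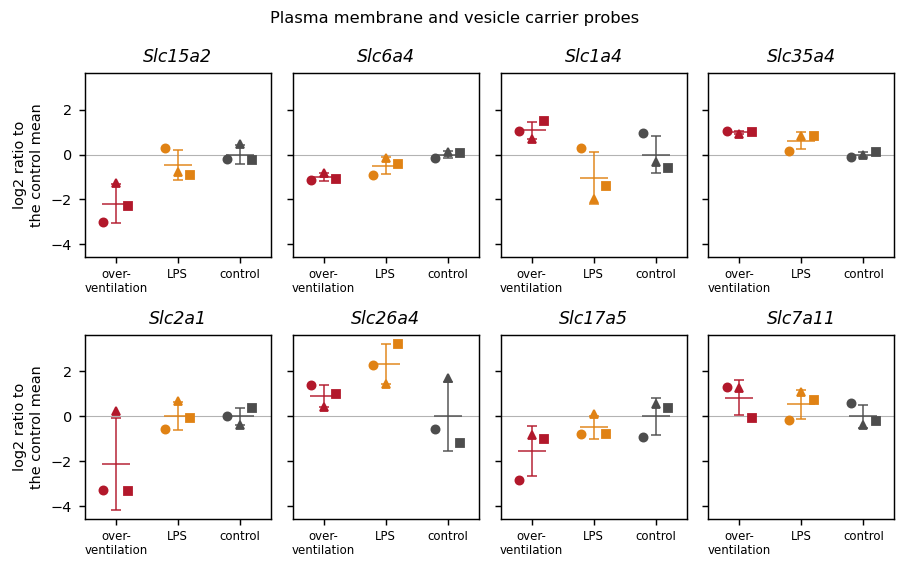
Log2 ratio to the control mean on each array (circle, triangle and square for arrays 1, 2 and 3 of a group) for carriers of the plasma membrane and vesicles, with group mean and SD, overventilation left, LPS in the middle and control right. Slc15a2 and Slc6a4 were below and Slc35a4 was above all controls on all 3 overventilation arrays, and Slc2a1 was low on 2 of them.

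LPS against control sets lungs after endotoxin injection beside control lungs. Again 0 of 5710 probes (0.0%) passed limma's test at an adjusted p under 0.05. At an unadjusted p under 0.05, 3 of the 85 members differed, Slc26a4 and Slc14a2 higher and Slc25a23 lower, which compares with 2.07% of all tested probes, 0.998% higher and 1.07% lower. The LPS lungs lay wholly above the controls for 4 members and wholly below for 4, against 2.24% and 4.08% of all tested probes (6.32% in either direction). The median difference of the 85 was -0.03, against -0.05 over all tested probes. With the array number as a block, since same-numbered LPS and control arrays deviated together, 6 members differed at that threshold and 5.5% of all probes: Slc10a1 and Slc35a4 joined the higher ones and Slc28a2 the lower ones. Without LPS array 1 the count was 11, with 8.0% of all probes. It was 1 without LPS array 2, with 1.51% of all probes, and 1 without control array 3, with 0.981%.

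Slc26a4, the anion exchanger pendrin of airway epithelium, was at 2.31, 1.46 and 3.24 in LPS lungs and -0.57, 1.73 and -1.16 in control lungs, with 1.38, 0.40 and 1.00 in overventilated lungs. Control array 2 lay above LPS array 2, so the groups overlapped. The difference between LPS and control lungs was 2.34 ± 0.73 (SE, n = 3 each), or 5.05-fold, with an adjusted p of 1. Slc14a2, a urea transporter known from kidney, was at 0.63, 0.89 and 0.78 in LPS lungs and -0.25, 0.37 and -0.12 in control lungs, without overlap, and was higher by 0.77 ± 0.31 (adjusted p = 1). The bile acid carrier Slc10a1 was higher by 0.65 ± 0.31 and the nucleoside carrier Slc28a2 differed by -0.63 ± 0.31 between LPS and control lungs, both without overlap.

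Overventilation against LPS sets the injuries against each other. No probe passed limma's test at an adjusted p under 0.05 (0.0%), though 226 probes did without overventilation array 2, Slc15a2 and Slc2a1 among them. At an unadjusted p under 0.05, 8 of the 85 members differed, 6 higher and 2 lower in overventilated lungs, against 9.51% of all tested probes (3.57% higher and 5.94% lower). The higher ones were Slc1a4, Slc25a33, Slc7a7, Slc39a13, Slc22a12 and Atp1b1, and the lower ones Slc15a2 and Slc2a1. The groups did not overlap for 7 higher and 4 lower members, against 5.71% and 5.46% of all tested probes (11.2% in either direction). The median difference was 0.22, against 0.07 over all tested probes. The higher mean was in overventilated lungs for 57 of the 85 and for 3143 of all 5710 tested probes. For Atp1b1 the difference was 1.12, and 0.56 without overventilation array 3, and without that array the members that differed numbered 3. This comparison and the 2 above share arrays, so their values for a gene are not independent of each other. Of the 8, Slc1a4 and Slc15a2 kept an unadjusted p under 0.05 in 20 of 20 alternatives, Slc25a33 in 15, Slc7a7 and Slc2a1 in 10, Slc39a13 in 9, and Atp1b1 and Slc22a12 in 7.

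**Figure D5:**
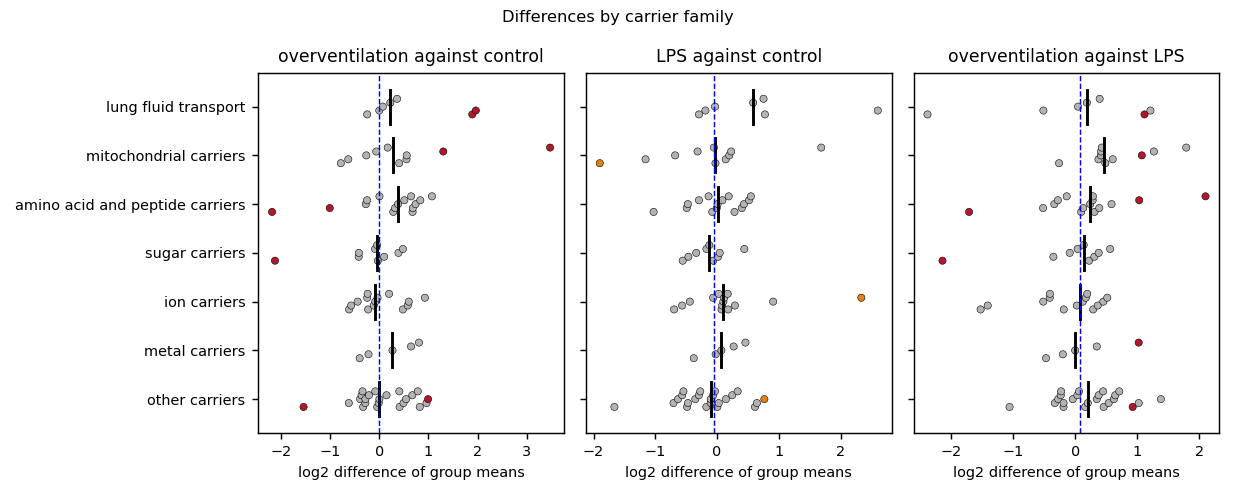
Log2 differences of the tested members by family in the comparisons of overventilation with control, LPS with control and overventilation with LPS, 1 point per gene, the 2 tested symbols that encode no carrier left out; coloured points had an unadjusted p under 0.05, the black line is the family's median and the blue dashed line the median of all tested probes. Slc25a5 was the highest point and Slc15a2 the lowest in overventilation against control, and the medians of the families lay between -0.10 and 0.38 there.

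The families differed little in their medians between overventilated and control lungs: 0.38 for amino acid and peptide carriers, 0.29 for mitochondrial, 0.27 for metal, 0.22 for lung fluid, -0.01 for other, -0.04 for sugar and -0.10 for ion carriers. The higher mean was in overventilated lungs for 11 of 15 amino acid and peptide carriers and for 5 of 14 ion carriers. Over the whole array it was so for 2820 of 5710 tested probes. No family had more than 2 members in one direction at an unadjusted p under 0.05 in that comparison. For LPS against control the highest median was 0.59 for lung fluid genes, where none of the 7 differed at that threshold.

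The 58 probes partly at the floor gave no member that stood above its floor on all 3 overventilation arrays. On all 3 LPS arrays 4 did, and on all 3 control arrays 3 did, none of them in one group alone. Per array, 11, 28 and 8 of the 58 were above the floor in overventilated lungs, 21, 28 and 14 in LPS lungs and 31, 21 and 7 in control lungs. Within each group the counts differed by array, and overventilation array 3, with the highest floor, had 8.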

How the data were processed

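The deposited table of 9 mouse lung arrays held values on a linear ratio scale, each probe divided by the geometric mean of its 3 control values, as tested on the values (largest deviation of a control mean from 0 on the log2 scale 2.5e-09); the labels name no array maker, scanner or earlier processing by the authors. At 4690 probes 2 or more arrays held one fixed pattern of values (tolerance 1e-06), read as each array's floor. For these, values were set on the scale of probes at the floor on all arrays. Those below the highest floor there, a ratio of 2.22, were raised to it and again divided by the control mean. Probes above that floor on 3 or more arrays, or with no known floor, were tested, 5710 in all; the share of probes at the floor was 27.8% to 42.4% per array. Arrays have no read depth, and 3 per group limit the precision. The plan assumed log2 values, and ratios were log2-transformed to fit it. Gene names came from the platform annotation (8983 probes with 1 symbol, 1 with several, 1028 with none).

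The test was limma (version 3.58.1, R 4.3.3; all 9 arrays, 1 spread per probe, two-sided, Benjamini-Hochberg over all 5710 probes); an adjusted p under 0.05 was the threshold, and an unadjusted p under 0.05 a description. Tested on simulated data of overventilation against control over 5710 probes, the adjusted threshold recovered 30% of 100 probes changed by 1.5 (log2) and 76% of 100 changed by 3. It also called 6 unchanged probes. The simulated noise was normal and independent for each array, without floors, lone values or deviations shared by arrays. The recovered shares may therefore not hold for these arrays. Deviations of same-numbered arrays correlated at 0.497, 0.247 and 0.199 between LPS and control. Between overventilation and control the correlations were 0.508, 0.133 and 0.033, and between overventilation and LPS 0.496, 0.211 and 0.038. The main test did not pair the arrays by number, so its standard errors, p-values and counts are unpaired. A block for the number was fitted as an alternative. The 20 alternatives were other scalings, floors and filters, array weights, a block for the array number and each array left out. Genes named were all Aqp, Atp1 and Scnn1 probes, all tested Slc25 probes, in each comparison the 10 other members higher and the 10 lower with the smallest p, and a list of carriers fixed by name. Members and lists were chosen with earlier results of these data known. Promoter windows came from RefSeq on GRCm38.p6.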

Additional observations from a re-analysis of the deposited data

How the results depend on the processing

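No difference at an unadjusted p under 0.05 changed sign under the 20 alternatives (0 of 20). Among all 183 differences of the tested genes named by the rule, 59 had both signs, Aqp5 between overventilated and control lungs from -1.49 to 1.47. The members' median of LPS against control, near 0, was 0.011 with quantile normalization, 0.0017 with median centring, 0.0052 with lone low values missing and 0.0013 without control array 2. With quantile normalization, 4 members differed between overventilated and control lungs and 2 between overventilated and LPS lungs at an unadjusted p under 0.05, and the median of the second comparison was 0.084. Without the filter, 6 members differed between LPS and control and 4 between overventilation and LPS, where the median was 0. An offset in place of the floor gave that median as 0.090, and a lower common floor without overventilation array 3 gave 0.13 with 3 members. Array weights gave 9 members for LPS against control, and fitting the 2 groups alone gave 5 for overventilation against LPS. With the array number as a replicate block, 6 members differed between LPS and control, 13 between overventilation and control and 10 between overventilation and LPS, where 5.5%, 21.0% and 14.7% of all probes did. Between overventilation and LPS, Atp1b1 and Slc7a7 were no longer among them. Among the named members, adjusted calls were gained only without overventilation array 2, as given below.

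Leaving out each array in turn gave 0 to 290 probes called for overventilation against control, 0 to 1 for LPS against control and 0 to 226 for overventilation against LPS, all at an adjusted p under 0.05. The highest counts came without overventilation array 2, where Slc2a1, Slc15a2, Slc25a5 and Atp1b1 passed against control (adjusted p = 0.00338, 0.015, 0.0382 and 0.0487) and Slc2a1 and Slc15a2 against LPS (0.00397 and 0.0392). Their adjusted p reached 0.754 for Slc2a1 and 0.593 for the other 3 under other alternatives against control. The members that differed numbered 7 to 11, 1 to 11 and 3 to 10 in the same order of comparisons, with medians of 0.021 to 0.21, -0.06 to 0.00 and 0.14 to 0.28. For LPS against control, 11 came without LPS array 1 and 1 each without LPS array 2 and without control array 3. Against control, Slc25a5, Slc25a33, Atp1b1 and Slc15a2 stayed at an unadjusted p under 0.05 in 20 of 20 alternatives, Slc35a4 and Slc6a4 in 19, Atp1b3 and Slc17a5 in 14 and Slc2a1 in 12. The causes were not tested. Signals near the floor limit any fold change there.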

Other observations

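Same-numbered arrays of different groups shared part of their pattern, above all those numbered 1. Among the members this was about as frequent as on the whole array. Array 1 held the highest value of its group in all 3 groups for 15 of the 85 tested members (17.6%, against 16.9% of all tested probes), Scnn1a, Slc34a2, Slc25a37 and Slc39a7 among them. It held the lowest for 19 members (22.4%, against 16.9%). For array 2 the counts were 9 highest (10.6%, against 9.05% of all tested probes) and 2 lowest (2.35%, against 3.38%). For array 3 they were 4 highest (4.71%, against 3.27%) and 3 lowest (3.53%, against 7.36%). Slc34a2, for example, was at 0.66 on overventilation array 1, 0.81 on LPS array 1 and 0.63 on control array 1, and below 0.2 on the other 6.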
